A study of Mus musculus with 12 samples.

Results

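Sbk2, Cngb3 and 1700040L02Rik are 3 genes of low to moderate level in the mouse ventricle that were almost lost in Sdhaf4-deficient hearts. They were chosen by name from the 43686 rows of the expression table, and the names had been selected on the difference between KO and WT in these same libraries, in which they were among the 5 largest falls of the rows at 5 CPM or more that passed the stricter rule given later. Their own differences are therefore given as a description, without a test. RNA-seq was performed on ventricular wall (called left ventricle in a legend of the study) from 6 WT and 6 KO mice. WT mice were littermates with floxed Sdhaf4 alleles (Sdhaf4 fl/fl) and no Cre. KO mice carried the same floxed alleles together with Ckmm-Cre, a transgene in which the muscle creatine kinase promoter drives the recombinase in cardiac and skeletal muscle, and which does not target the fibroblasts, endothelial cells and macrophages of the heart. The sample labels give the genotype as Sdhaf4-/-, the strain as C57BL/6 and the age as 2 months. The study names C57BL/6J mice and an age of 6 weeks for the RNA-seq hearts, while its reporting summary lists different ages for omics. Sdhaf4, which encodes an assembly factor of mitochondrial complex II, lay between 14.3 and 30.3 CPM (counts per 1000000 of the library size after TMM scaling) in the WT libraries and between 2.25 and 2.73 CPM in the KO libraries, so each library matched its label. Library totals were 23747014 to 27159228 counts in WT and 26542930 to 31393393 in KO. No label states that the libraries come from separate animals, and p-values measure the spread between these libraries.

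The 3 genes belong to unrelated families. Sbk2 encodes a serine/threonine kinase of the SH3-binding domain kinase (SBK) family and is known as a kinase that is enriched in the atria of the heart. Cngb3 encodes the beta subunit of the cyclic nucleotide-gated channel of cone photoreceptors, which passes cations when cGMP is bound, pairs with the pore-forming alpha subunit Cnga3, and causes achromatopsia when it is lost. 1700040L02Rik, whose current RefSeq symbol is Cabcoco1, encodes a ciliary coiled-coil protein, and the table lists a domain of the flagellar C1a complex for it. None of these genes is known as a part of mitochondrial complex II.

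To show the sequence at the start of genes that fell together, the promoters of the members and of Sbk3, the kinase gene next to Sbk2, were read from RefSeq on GRCm38.p6. Of the 3 members, 2 matched by gene number. Cngb3 was not matched. Each line runs from 250 bases before to 50 bases after the start, 5′ to 3′ on the strand of the gene, and capitals mark every match of 10 short motifs. The windows are chr7:4964357-4964656 (minus strand) for Sbk2, chr7:4970912-4971211 (minus strand) for Sbk3 and chr10:68541826-68542125 (minus strand) for 1700040L02Rik.
Sbk2: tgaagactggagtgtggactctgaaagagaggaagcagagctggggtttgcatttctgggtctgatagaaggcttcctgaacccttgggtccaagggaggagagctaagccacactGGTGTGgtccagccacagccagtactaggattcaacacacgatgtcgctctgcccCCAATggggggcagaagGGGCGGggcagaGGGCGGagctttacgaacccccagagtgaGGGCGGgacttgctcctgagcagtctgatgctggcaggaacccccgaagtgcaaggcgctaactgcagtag
Sbk3: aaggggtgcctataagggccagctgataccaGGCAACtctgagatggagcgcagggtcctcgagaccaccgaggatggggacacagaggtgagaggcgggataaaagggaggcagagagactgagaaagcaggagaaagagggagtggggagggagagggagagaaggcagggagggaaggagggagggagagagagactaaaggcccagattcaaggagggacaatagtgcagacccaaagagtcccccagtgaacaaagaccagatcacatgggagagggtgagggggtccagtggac
1700040L02Rik: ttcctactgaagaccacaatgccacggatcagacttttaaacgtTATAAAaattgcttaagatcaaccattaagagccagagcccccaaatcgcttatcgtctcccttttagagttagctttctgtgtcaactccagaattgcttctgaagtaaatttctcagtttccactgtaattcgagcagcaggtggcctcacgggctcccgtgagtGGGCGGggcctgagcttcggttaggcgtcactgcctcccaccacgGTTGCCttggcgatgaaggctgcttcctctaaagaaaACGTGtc

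The Sbk2 window held the GC box (GGGCGG) 3 times on its own strand, with first bases 62, 50 and 21 bases before the start, a CCAAT box (CCAAT) 79 bases before it and a T-box core (GGTGTG) 134 bases before it. In the 1700040L02Rik window there were a TATA box (TATAAA) 206 bases before the start, a GC box 39 bases before it, the RFX motif (GTTGCC) at base 7 of the transcript and the core of the hypoxia response element (ACGTG) at base 44. The Sbk3 window held a single match, the RFX motif on the other strand, 219 bases before the start. No motif was therefore shared by all 3 windows. Over all 32851 promoters of the same length, with both strands searched, 35.7% held the GC box, 37.4% the CCAAT box, 19.0% the T-box core, 13.6% the TATA box, 12.5% the RFX motif and 19.6% the hypoxia response core. The nuclear receptor core (AGGTCA, 16.3% of promoters), the GATA site (AGATAA, 11.2%), the MEF2 site (0.557%) and the CArG box (1.63%) had no match in the 3 windows. A match describes the sequence only. No 2 matches overlapped.

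Sbk2 had the deepest fall of the 3 genes. It lies on chromosome 7 at 1976846 to 1987738, minus strand, in the C57BL/6NJ assembly that the table's identifiers belong to (MGP_C57BL6NJ_G0032014). In the WT libraries 1 to 6 its level was 10.8, 9.21, 11.0, 8.51, 15.5 and 14.3 CPM, and in the KO libraries 1 to 6 it was 0.514, 0.112, 0.795, 0.344, 0.0652 and 0.180 CPM. The groups did not overlap, and the lowest WT library was 10.7-fold above the highest KO library. The KO level rested on very few reads, from 2 in KO5 to 24 in KO3, against 214 to 383 in WT. For KO5 the Wilson 95% interval ran from 0.0179 to 0.238 CPM, which covers counting error only. The mean fell from 11.6 ± 2.78 to 0.335 ± 0.279 CPM (SD, n = 6 each), to 2.90% of WT, a log2 fold change of -5.07 (SE 0.35). In bulk tissue, fewer cells of a type and less RNA per cell cannot be told apart, here and for each gene that follows.

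1700040L02Rik was the steadiest of the 3 genes in control hearts. It spans 126 kb of chromosome 10, from 70690719 to 70816938 on the minus strand (MGP_C57BL6NJ_G0017725). The WT libraries 1 to 6 gave 15.1, 14.8, 16.8, 17.0, 14.8 and 16.2 CPM, a coefficient of variation of 6.31%. The KO libraries 1 to 6 gave 0.482, 1.42, 1.09, 0.859, 0.587 and 0.252 CPM, from 7 to 38 reads. The lowest WT library was 10.4-fold above the highest KO library. The mean fell from 15.8 ± 0.996 to 0.783 ± 0.430 CPM (SD, n = 6 each), which left 4.96% of the WT level and a log2 fold change of -4.34 (SE 0.24).

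By the group mean, Cngb3 retained the most of its WT level, but this order rested on KO3. Without KO3 its log2 fold change was -4.68, below the -4.47 of 1700040L02Rik. Cngb3 spans 242 kb of chromosome 4, from 16951249 to 17193576 on the plus strand (MGP_C57BL6NJ_G0028491). Its WT levels in libraries 1 to 6 were 10.5, 11.6, 15.3, 8.07, 14.0 and 10.2 CPM. Its KO levels in libraries 1 to 6 were 0.289, 1.01, 1.62, 0.309, 0.359 and 0.324 CPM, from 9 to 49 reads. KO2 and KO3 thus stood above the other 4 KO libraries, which lay within 0.289 to 0.359 CPM, and all 6 lay below the lowest WT library by at least 4.97-fold. The mean fell from 11.6 ± 2.64 to 0.653 ± 0.550 CPM (SD, n = 6 each), to 5.62% of WT, with a log2 fold change of -4.15 (SE 0.37). An unnamed row on the same strand (MGP_C57BL6NJ_G0012836) overlaps Cngb3 and was at or under 0.157 CPM in every library.

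**Figure D1:**
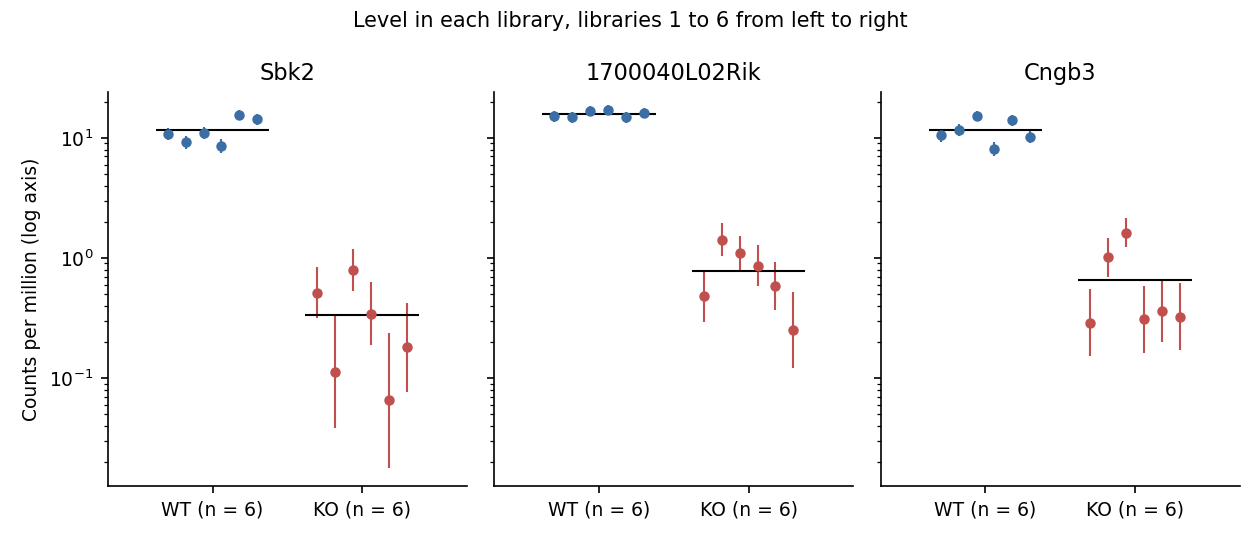
Level in CPM (log axis) of Sbk2, 1700040L02Rik and Cngb3 in the 6 WT (blue) and 6 KO (red) libraries, with Wilson 95% counting intervals and the group mean as a line. WT libraries lie between 8.07 and 17.0 CPM and KO libraries between 0.0652 and 1.62 CPM, with no overlap in any gene.

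With length taken into account, 1700040L02Rik had the highest level of the 3 genes in WT hearts and Cngb3 the lowest. On the FPKM scale that the authors deposited, in which fragments are scaled for length and library size, the WT mean was 16.5 ± 1.05 for 1700040L02Rik, 10.1 ± 2.43 for Sbk2 and 2.46 ± 0.538 for Cngb3 (SD, n = 6 each). Every WT library of 1700040L02Rik, at 15.1 FPKM or more, was above every WT library of Sbk2, at 13.3 FPKM or less, and all of these were above every WT library of Cngb3, at 3.20 FPKM or less. Among the rows tested, these WT levels stood at percentile 68.8, 58.0 and 32.0. In KO hearts the means were 0.818 ± 0.447, 0.291 ± 0.237 and 0.137 ± 0.112 FPKM, at percentile 16.9, 5.25 and 1.56, and the libraries of the 3 genes overlapped there.

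All 3 genes passed the filter on low counts through their WT libraries, and all 3 had every KO library below every WT library, a pattern that 15.2% of the 17155 rows tested showed (14.9% had every KO library above every WT library). Since the genes were chosen on this contrast, nothing is read from that count. Of the rows tested, 25.5% were lower and 25.6% higher in KO (edgeR quasi-likelihood test, adjusted p under 0.05), 51.1% in all, and 4.87% were lower at an adjusted p under 0.005 with a log2 fold change under -1. A log2 fold change under -4, which the 3 genes had, was found in 0.227% of the rows, and a KO mean under 10% of the WT mean in 0.478%. When the 369 rows of 5 CPM or more that passed this stricter rule were ordered by their fall, Sbk2 ranked 2, 1700040L02Rik 4 and Cngb3 5. Ces1d, a carboxylesterase that hydrolyses lipid esters, ranked first (153 to 1.30 CPM, log2 fold change -6.86). The unannotated row Novel00549 stood between Sbk2 and 1700040L02Rik (49.8 to 1.72 CPM, log2 fold change -4.84). Acot1, an acyl-CoA thioesterase, came just after Cngb3 (89.9 to 6.26 CPM, log2 fold change -3.84).

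**Figure D2:**
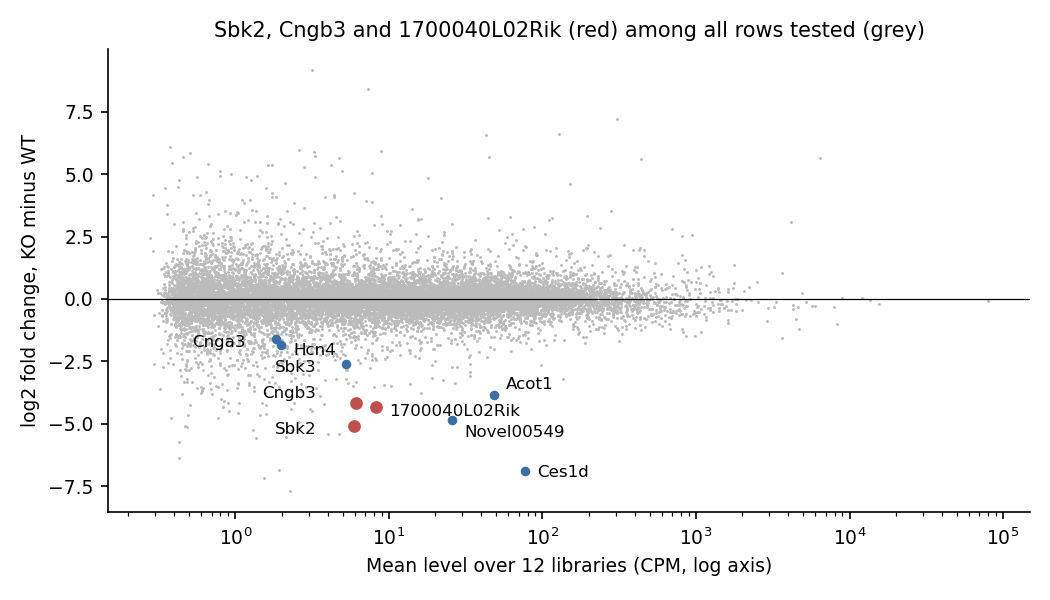
log2 fold change (KO minus WT) against mean level (CPM, log axis) of the 17155 rows tested (grey), with the 3 genes in red and other named rows in blue. Sbk2 (-5.07), 1700040L02Rik (-4.34) and Cngb3 (-4.15) lie below the cloud at mean levels under those of Ces1d, Novel00549 and Acot1.

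What remained in the KO hearts differed from library to library and was not in the same order for the 3 genes. As a share of the WT mean, Sbk2 stood at 4.45%, 0.973%, 6.87%, 2.97%, 0.564% and 1.56% in KO libraries 1 to 6. 1700040L02Rik stood at 3.05%, 9.02%, 6.92%, 5.44%, 3.72% and 1.60% in the same libraries. Cngb3 stood at 2.49%, 8.71%, 14.0%, 2.66%, 3.09% and 2.79%. KO3 was the highest KO library for Sbk2 and Cngb3 and the next to highest for 1700040L02Rik, while KO2 was low for Sbk2 alone. KO3 was also the highest KO library in 407 (48.9%) of the other 833 rows that fell past both thresholds, against 62 to 117 rows for each of the other KO libraries. Without KO3 the log2 fold changes were -5.53 for Sbk2, -4.68 for Cngb3 and -4.47 for 1700040L02Rik. Sdhaf4 itself was at 2.25 CPM in KO3, the lowest of the KO libraries, and what sets KO3 apart was not tested.

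**Figure D3:**
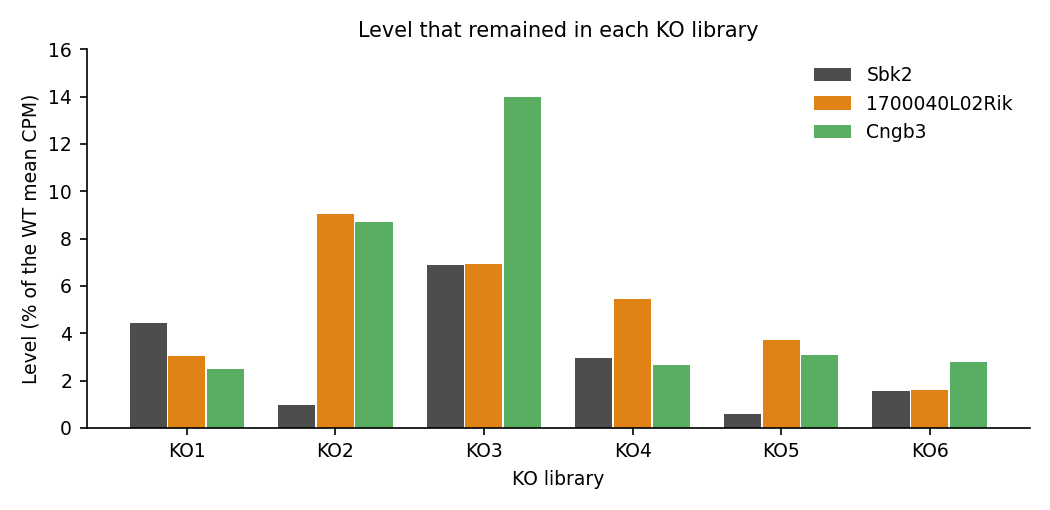
Level of the 3 genes in each KO library as a percentage of the WT mean CPM. Cngb3 reaches 14.0% in KO3, 1700040L02Rik 9.02% in KO2 and Sbk2 6.87% in KO3.

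The scatter between libraries of 1 genotype was not the same for the 3 genes. In WT the counts of 1700040L02Rik varied little beyond counting error (chi-square per degree of freedom 1.61, where counting error alone gives about 1), whereas those of Sbk2 (17.1) and Cngb3 (15.1) varied far more. In KO the values were 6.78 for Sbk2, 13.9 for Cngb3 and 6.67 for 1700040L02Rik. The coefficient of variation rose from 24.0% to 83.3% for Sbk2, from 22.7% to 84.3% for Cngb3 and from 6.31% to 54.9% for 1700040L02Rik, while the mean fell to under 1 CPM. These are descriptions of a spread that includes counting error.

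Whether the 3 genes varied together among hearts of the same genotype was asked on log2 CPM, separately in the 6 WT and the 6 KO libraries. With the level of the atrial markers included, 12 relations were computed, and none passed (two-sided exact permutation test, Benjamini-Hochberg over the 12). Cngb3 and 1700040L02Rik had r = 0.72 in KO (Spearman's ρ 0.66, exact permutation p = 0.135 and 0.175, adjusted p = 0.789 and 0.967), and r was -0.04 without the 2 libraries farthest from the median, so the value rests on those. In WT the same pair had r = -0.29 (ρ -0.37, exact permutation p = 0.546 and 0.497, adjusted p = 0.789 and 0.994), and r was -0.68 without the 2 farthest libraries. Sbk2 and Cngb3 had r = 0.47 in WT (ρ 0.49, exact permutation p = 0.354 and 0.356, adjusted p = 0.789 and 0.994) and r = 0.29 in KO (ρ -0.09, exact permutation p = 0.557 and 0.919, adjusted p = 0.789 and 1.00), and without the 2 farthest libraries r was 0.74 and -0.79. Sbk2 and 1700040L02Rik had r = -0.27 in WT (ρ -0.26, exact permutation p = 0.529 and 0.658, adjusted p = 0.789 and 1.00) and r = 0.12 in KO (ρ 0.03, exact permutation p = 0.818 and 1.00, adjusted p = 0.910 and 1.00), and without the 2 farthest libraries r was -0.13 and -0.30. With 6 libraries in a group, only strong relations could pass.

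The rows most like each gene within genotype differed between the 3 genes. After the genotype means were removed, the highest r over the 12 libraries among 11166 rows of at least 5 CPM was that of Decr2, a peroxisomal dienoyl-CoA reductase, with Sbk2 (0.890), followed by the unnamed row MGP_C57BL6NJ_G0019708 (0.865) and Sfrp1, a secreted Wnt antagonist (0.862). For Cngb3 they were Ccdc28a (0.947), Asb5 (0.945) and Ndufs1, a subunit of mitochondrial complex I (0.927). For 1700040L02Rik they were the RNA helicase Ddx6 (0.881), the histidine decarboxylase Hdc (0.880) and Klhl28 (0.880). In the KO libraries alone, where the members had 2 to 49 reads, these rows had r from 0.89 to 0.96. In WT alone r was 0.79 to 0.93 for the rows of Cngb3. It was only 0.49 to 0.60 for those of Sbk2 and 0.16 to 0.53 for those of 1700040L02Rik. These rows did not share a direction in KO: by the edgeR adjusted p, Decr2 (log2 fold change -0.47), Ccdc28a (-1.18), Asb5 (-1.64) and Ndufs1 (-0.54) were lower, Sfrp1 (1.81), Ddx6 (0.17) and Hdc (0.55) were higher, and MGP_C57BL6NJ_G0019708 (-0.05) and Klhl28 (0.01) did not pass. Hdc was at an adjusted p of 0.0335, and it no longer passed in 8 of the 12 fits without 1 library (edgeR adjusted p of up to 0.0789). All points of a correlation share their library and its depth, and the top of many rows is high by selection. Between the members r was 0.665 for Cngb3 and 1700040L02Rik, 0.306 for Sbk2 and Cngb3, and 0.105 for Sbk2 and 1700040L02Rik.

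The other 2 kinases of the SBK family also fell. Over all rows tested, 25.5% were lower, and 15.2% had every KO library below every WT library. Sbk3, a close relative of Sbk2, gave 5.07, 4.88, 9.96, 6.60, 12.9 and 14.4 CPM in WT libraries 1 to 6 and 0.482, 1.01, 2.78, 2.03, 0.978 and 1.62 CPM in KO libraries 1 to 6. The groups did not overlap, and the mean fell from 8.97 ± 4.09 to 1.48 ± 0.834 CPM (SD, n = 6 each), a log2 fold change of -2.59 (SE 0.40, edgeR adjusted p = 1.39e-04). Sbk1, the family member with the highest level, fell from 106 to 69.9 CPM (log2 fold change -0.59, SE 0.08, edgeR adjusted p = 9.51e-06). On the FPKM scale the WT means were 64.9 for Sbk1, 10.1 for Sbk2 and 4.23 for Sbk3, and the KO means were 43.0, 0.291 and 0.695. The mean of Sbk2 thus stood above that of Sbk3 in WT and below it in KO. In KO1, however, Sbk2 (0.514 CPM, 16 reads) was not below Sbk3 (0.482 CPM, 15 reads), on a scale without length correction. Sbk2 and Sbk3 varied together within WT (r = 0.82 over 6 libraries) more than within KO (r = 0.29), in a pair looked at after its values were known, and WT5 and WT6 were high in both.

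Among the channels related to Cngb3, its partner Cnga3 fell. Cnga3 gave 3.13, 2.49, 3.23, 1.79, 3.24 and 2.71 CPM in WT libraries 1 to 6 and 0.899, 1.20, 1.85, 0.619, 0.521 and 0.396 CPM in KO libraries 1 to 6. The groups overlapped, since KO3 at 1.85 CPM was above WT4 at 1.79 CPM, and the log2 fold change was -1.59 (SE 0.31, edgeR adjusted p = 3.84e-04). In the WT hearts Cngb3 was above Cnga3 on the FPKM scale (2.46 against 1.30), and in the KO hearts it was below (0.137 against 0.429). Cnga3 and Cngb3 moved together within genotype (r = 0.85 over the 12 libraries, 0.82 in WT and 0.86 in KO), again in a pair chosen after its values were known, and KO2 and KO3 were the highest KO libraries for both. Such an r was not particular to this pair, since Ccdc28a (0.947), Asb5 (0.945) and Ndufs1 (0.927) had a higher r with Cngb3.

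Of the other channel genes of the list, 3 were tested. Hcn4, the pacemaker channel, fell from 3.10 to 0.872 CPM (log2 fold change -1.83, SE 0.29, edgeR adjusted p = 5.00e-05). Hcn2, another pacemaker channel, was at 26.3 CPM in WT and 23.6 CPM in KO (log2 fold change -0.16, edgeR adjusted p = 0.370), with KO3 at 36.6 CPM above all other libraries. Without KO3 Hcn2 was lower (log2 fold change -0.33, edgeR adjusted p = 0.00156). Cngb1, the beta subunit of rods, was at 1.75 and 1.63 CPM (log2 fold change -0.10, edgeR adjusted p = 0.765). Cnga1, Cnga2, Cnga4 and Hcn3 had too few counts to test, with means under 1 CPM in both groups. In total 2 of the 4 tested relatives of Cngb3 fell and none rose, with a median log2 fold change of -0.87, beside 25.5% lower, 51.1% called and a median of 0.00 over all rows tested.

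Genes for the proteins that make, bind or degrade cyclic nucleotides, the ligands of the channel, were called about as often as all rows. Of 17 tested genes of cGMP and cAMP turnover, 7 rose, 2 fell and 8 did not pass, beside 25.6% higher and 25.5% lower over all rows tested, with a median log2 fold change of 0.21. The largest rise was that of Prkg1, the cGMP-dependent protein kinase, from 11.0 to 20.8 CPM (log2 fold change 0.92, edgeR adjusted p = 6.64e-08). Pde8a, a cAMP phosphodiesterase, rose by a log2 fold change of 0.63, and Pde3a, a phosphodiesterase of cardiomyocytes, fell by 0.71 on the log2 scale. The other gene that fell was Pde4a (log2 fold change -0.50).

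Most listed genes of the cells that Cngb3 and 1700040L02Rik are known from were close to absent from both groups. Of 19 photoreceptor genes, 18 were under 1 CPM in both groups, among them the cone opsins Opn1sw and Opn1mw and the cone genes Gnat2 and Pde6c, and the summed level was 2.71 to 4.09 CPM in WT and 1.80 to 3.32 CPM in KO. Of the 3 tested, Sag (log2 fold change -2.15, and -3.26 without KO2) and Guca1b (-1.65) fell from means of 0.550 and 0.634 CPM, and Pde6h did not pass (0.21). Of 20 motile cilium genes with a row, 15 were under 1 CPM in both groups, among them Foxj1, the regulator of motile ciliogenesis, at 0.0448 CPM in WT and 0.0967 CPM in KO. Their summed level was 36.0 to 43.6 CPM in WT and 43.7 to 58.8 CPM in KO, with Cfap43 taking most of it. Of the 7 tested, Cfap43 rose from 32.6 to 43.8 CPM (log2 fold change 0.42) and Ccdc114 fell by 1.05 on the log2 scale. Cfap126 fell by 0.71 with an edgeR adjusted p of 0.0414 that was lost in 9 of the 12 fits without 1 library, and 4 did not pass. Over all rows tested, 25.6% were higher and 25.5% lower, 51.1% in all. The level of 1700040L02Rik in WT, 15.8 CPM, thus stood beside motile cilium genes that were mostly under 1 CPM.

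The labelled tissue was checked on atrial markers, since Sbk2 is known as an atrial kinase. The atrial genes Myl7, Sln and Bmp10 were at or under 0.293 CPM in every library. Of the other listed markers, Myl4 rose from 2.12 to 3.49 CPM (log2 fold change 0.72) and Nr2f2 from 17.2 to 28.0 CPM (0.70). Of 12 markers, 8 were tested, of which 5 rose, 2 fell and 1 did not pass, beside 25.6% higher, 25.5% lower and 51.1% called over all rows tested. Nppa, the natriuretic peptide that also marks stressed ventricle, rose from 250 to 12594 CPM (log2 fold change 5.65), Dkk3 rose by 3.21 and Pam by 1.34 on the log2 scale, and the potassium channel genes Kcnj3 (-1.54) and Kcnj5 (-1.15) fell. The summed level was 948 to 1308 CPM in WT and 9242 to 17566 CPM in KO, with Nppa taking most of the KO sum. Within genotype the relation of Sbk2 to that sum did not pass (r = 0.10 in WT and -0.28 in KO, ρ 0.03 and -0.20, exact permutation p = 0.854 and 0.592, 1.00 and 0.714 for ρ, adjusted p = 0.910 and 0.789, both 1.00 for ρ), with r of 0.90 and 0.11 without the 2 farthest libraries and of 0.16 and 0.40 without Nppa. The part of atrial RNA in the level or the fall of Sbk2 was not tested. For Cngb3 the same relation had r = -0.72 in WT and -0.52 in KO (ρ -0.71 and -0.43, exact permutation p = 0.115 and 0.312, 0.136 and 0.419 for ρ, both adjusted p = 0.789, 0.967 and 0.994 for ρ), and r of 0.03 and 0.50 without the 2 farthest. For 1700040L02Rik it had r = 0.51 in WT and -0.07 in KO (ρ 0.60 and 0.14, exact permutation p = 0.294 and 0.910, 0.242 and 0.803 for ρ, adjusted p = 0.789 and 0.910, 0.967 and 1.00 for ρ), and r of -0.44 and 0.88 without the 2 farthest. Without Nppa r was -0.63 in WT and 0.12 in KO for Cngb3, and 0.34 in both for 1700040L02Rik.

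Cardiomyocyte markers were called in both directions. Of 9 tested general cardiomyocyte markers, 2 rose (Mybpc3, log2 fold change 1.05, and Tnnc1, 0.33), 3 fell (Tnni3, -0.89, Pln, -0.79, and Ryr2, -0.50) and 4 did not pass, beside 51.1% of all rows called, and the summed level overlapped between WT (45511 to 50624 CPM) and KO (40434 to 56698 CPM). Of 8 ventricular markers, Myl2 (-0.31), Myl3 (-0.30) and Lbh (-0.26) fell, Myh7 (1.35, and 0.78 without KO6) and Kcne1 (0.70) rose and 3 did not pass, with sums of 12203 to 13865 CPM in WT and 10183 to 16262 CPM in KO. Within the KO sums, Myh7 alone stood at 6708 CPM in KO6 and at 1239 to 2249 CPM in the other KO libraries. Myl2, the ventricular light chain, was at 5120 CPM in WT. Of 7 tested conduction system markers, Gja5 (0.82), Shox2 (1.32) and Tbx18 (0.54) rose, Hcn4 fell and 3 did not pass, and the sums overlapped (48.4 to 65.2 CPM in WT, 59.5 to 67.6 CPM in KO).

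Among markers of other heart cells, those of fibroblasts rose, while endothelial and macrophage markers were called in both directions, beside 25.6% higher and 25.5% lower over all rows tested. All 7 fibroblast markers rose, led by Postn (log2 fold change 3.54), and their sum went from 1196 to 1356 CPM in WT to 2266 to 3765 CPM in KO. Of 7 endothelial markers, 4 rose, among them Flt1 (0.90) and Emcn (0.34), Tek fell (-0.30) and 2 did not pass, with sums of 1505 to 1651 CPM in WT and 1675 to 2027 CPM in KO. Of 7 macrophage markers, Mrc1 rose (0.43), Adgre1 (-0.62) and Csf1r (-0.26) fell and 4 did not pass, with a median of -0.00 and sums of 252 to 350 CPM in WT and 250 to 361 CPM in KO. Whether these values have a part in the fall of Sbk2, Cngb3 and 1700040L02Rik was not tested.

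**Figure D4:**
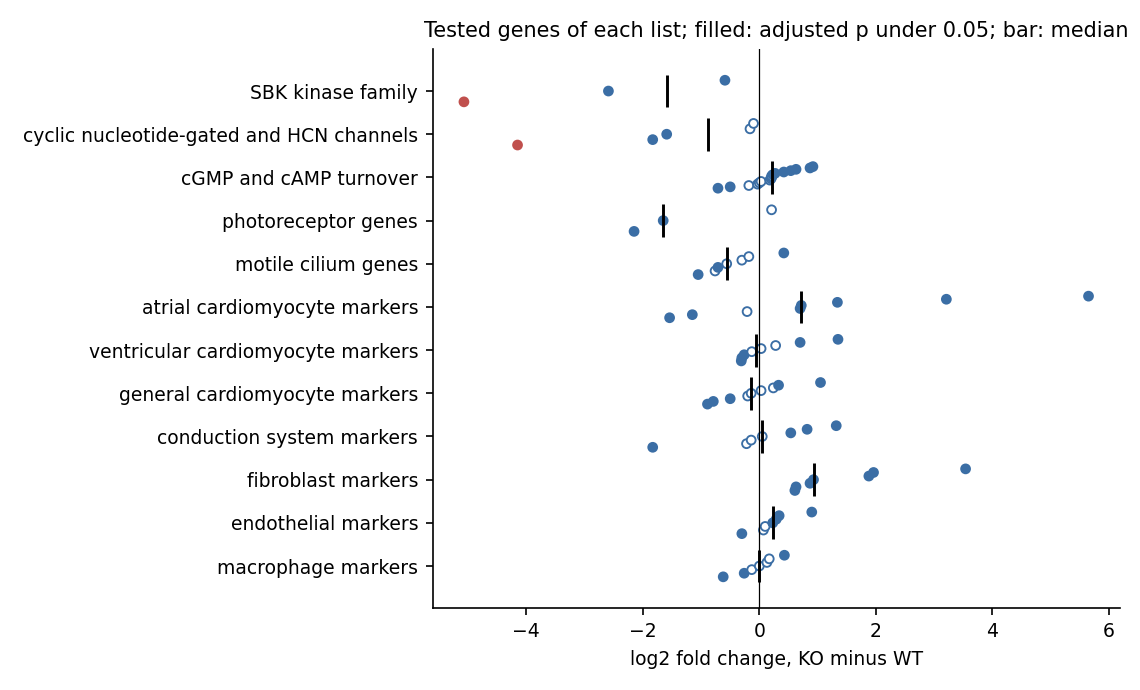
log2 fold change (KO minus WT) of every tested gene of 12 gene lists, filled where the edgeR adjusted p was under 0.05, with the median of each list without the 3 genes as a bar. Sbk2 and Cngb3 (red, -5.07 and -4.15) lie left of every other gene of their lists.

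The 3 genes lie on different chromosomes, and their neighbours were examined to see whether adjoining genes fell too. Around Sbk2, all 10 nearest rows were tested: 6 fell, 1 rose and 3 did not pass, beside 25.5% lower and 25.6% higher over all rows tested, with a median log2 fold change of -0.37. Sbk3 is the nearest, 869 bases from the 5′ end of Sbk2 on the same strand. Next to it fell Zfp579 (log2 fold change -0.40) and Fiz1 (-0.49), both zinc finger genes, and farther out Zfp524 (-0.73), Isoc2a (-1.42, from 77.9 to 29.0 CPM) and Isoc2b (-0.35). Ssc5d, a secreted scavenger receptor gene 13224 bases beyond the 3′ end of Sbk2, rose from 7.76 to 21.9 CPM (log2 fold change 1.50, SE 0.22, edgeR adjusted p = 8.85e-05), so a rising and a falling gene flank Sbk2.

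Cngb3 and 1700040L02Rik had no neighbour that fell by a comparable amount. Of the 11 rows around Cngb3, 3 were tested: Cpne3, 8630 bases away, was at 43.7 CPM in WT and 47.0 CPM in KO (log2 fold change 0.11, edgeR adjusted p = 0.104), Rmdn1 did not pass (0.05), and Wwp1, a ubiquitin ligase gene, rose (0.23). The nearest rows on either side, MGP_C57BL6NJ_G0012835 and MGP_C57BL6NJ_G0009904, had at most 1 read in a library. Of the 10 rows around 1700040L02Rik, none lay within 50 kb and 5 were tested. Arid5b, the nearest on the left at 167061 bases, was at 32.0 CPM in WT and 31.9 CPM in KO, and Tmem26 on the right was under 1 CPM and not tested. Zfp365 (1.54) and A930033H14Rik (1.55) rose, Rhobtb1 (-0.21) fell and Cdk1 (-0.34) did not pass. Around the 3 genes together 7 of 18 tested neighbours fell, 4 rose and 7 did not pass, beside 25.5% lower, 25.6% higher and 51.1% called over all rows tested.

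**Figure D5:**
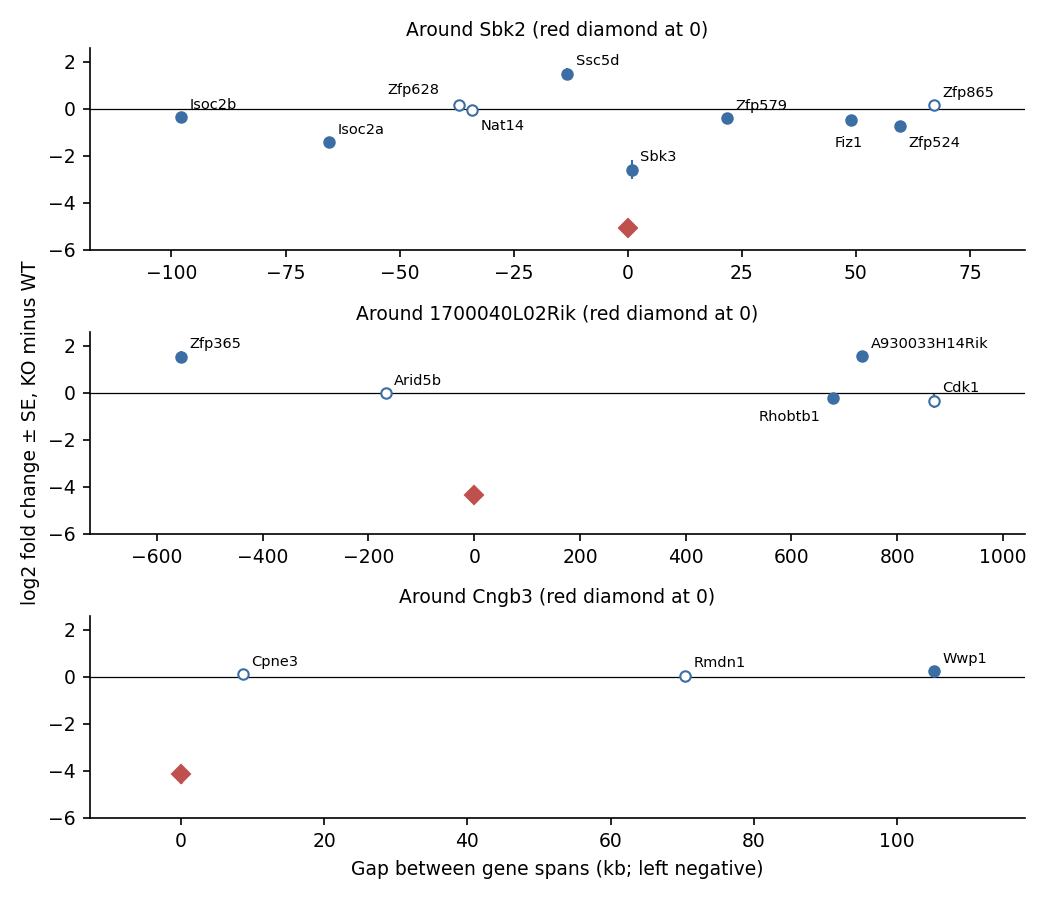
log2 fold change ± SE (KO minus WT) of the tested neighbours of each gene against the gap between the gene spans in kb, left side negative, filled where the edgeR adjusted p was under 0.05. Sbk3 (-2.59) is the neighbour with the largest fall, and no tested neighbour of Cngb3 lies below 0.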

How the data were processed

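RNA-seq of 6 WT and 6 KO ventricular walls was analysed from the authors' table. The authors purified poly-A mRNA, aligned the reads (the submitters' processing notes name HISAT2 2.0.5 and mm10) and counted them per gene with HTSeq; they deposited raw counts and FPKM values per library. The identifiers and coordinates are those of the C57BL/6NJ assembly, and how this relates to mm10 is not given in the sources used here. No source used here says whether the counting used strand. Columns with the authors' own comparison (log2 fold change, p-value, adjusted p) and their scaled group means were not used.

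Each column was matched to its sample by its name. The whole table went into edgeR 4.0.16 (R 4.3.3): filterByExpr kept 17155 of 43686 rows, TMM scaled the libraries, and KO was set against WT by the robust quasi-likelihood test. Adjusted p-values are Benjamini-Hochberg values across those 17155 rows, and rows under 0.05 are called. CPM are counts divided by the library size after TMM scaling (total times TMM factor), per 1000000. The steps were tested on simulated data with smaller changes and less scatter than the members had, so falls as deep as theirs were not covered. Members, gene lists, tests and motifs were chosen with earlier results of these data known. The named genes are the members, every tested gene of the SBK and channel lists, the 3 tested genes with the smallest p of each other list, the nearest row on each side of each member and called rows within 50 kb, the falls ranked directly above and below each member, and the 3 rows with the highest r within genotype. Other genes were named after their values were seen. Alternatives were DESeq2 1.42.0, its size factors, no filter on low counts, a replicate block, each library left out, and deposited FPKM with 2 pseudocounts. Library sizes set the precision: 1 read is worth 0.0321 to 0.0423 CPM, and intervals cover counting error only.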

Additional observations from a re-analysis of the deposited data

Results flagged for a closer look

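Each of the 108 groups of 6 libraries (54 tested genes that the text names by rule, in both genotypes) was examined for a library far from the others, by the gap to its nearest neighbour over the whole range against Dixon's 95% critical value, and 8 were found where chance gives about 5.40. Neither Sbk2, Cngb3 nor 1700040L02Rik was among them. In KO3, Hcn2 stood at 36.6 CPM (other KO libraries 19.0 to 22.4), Kcnj3 at 27.8 CPM (16.6 to 19.6) and Novel00549 at 4.17 CPM (0.722 to 1.66). In KO6, Myh7 stood at 6708 CPM (1239 to 2249) and Cfap43 at 53.7 CPM (38.4 to 43.9). In KO2, Sag stood at 0.487 CPM (0 to 0.128). In WT6, Tnni3 stood at 3332 CPM (3773 to 4019), and in WT3, Ccdc28a stood at 21.6 CPM (all others between 19.1 and 20). The cause was not tested.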

How the results depend on the processing

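The members' log2 fold changes hardly moved with DESeq2's size factors, its test or no filter on low counts, and they moved toward 0 with a pseudocount on deposited FPKM, by its construction: with a pseudocount of 1 they were -3.10 for Sbk2, -1.61 for Cngb3 and -3.26 for 1700040L02Rik, and with 0.1 that of Cngb3 was -3.43. With each library left out they ranged from -5.53 to -4.84 (Sbk2), -4.68 to -3.99 (Cngb3) and -4.58 to -4.16 (1700040L02Rik). Same-numbered WT and KO libraries did not deviate together (r from -0.162 to 0.0243), and a replicate block gave -5.11, -4.29 and -4.38. With that block 4123 rows were higher and 4110 lower. Over the other 51 named genes, 788 of 816 alternative values kept direction and call, 27 lost the call (those of Cfap126, Csf1r and Hdc), 1 gained it (Hcn2 without KO3) and 0 reversed, and the correlations kept their side of the threshold in all 24 alternatives. Csf1r no longer passed without WT3, WT4, WT6, KO2, KO3 or KO6 (adjusted p of up to 0.0670). Rows lower past both thresholds ranged from 797 to 960 with each library left out. A KO level of the members rests on 2 to 49 reads, so differences among KO libraries are near counting error for the lowest values.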
